A study of Mus musculus with 18 samples.

Results

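The 9 genes described here belong to Nodal and Wnt signalling and were followed in 6 mouse pluripotent cell lines. They are the ligand Nodal, its co-receptor Tdgf1 (Cripto), the secreted Nodal antagonists Lefty1, Lefty2 and Cer1, the ligand Wnt3, the Wnt feedback gene Axin2, the nuclear factor Lef1 and the primitive-streak gene Mixl1. The members were every probe set on the array annotated with a single symbol among these 9 genes, which gave 13 of the 45037 non-control probe sets, for 9 of the 18193 genes named on the array. Nodal, Axin2, Lef1 and Cer1 had 2 probe sets each and the other 5 genes had 1.

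Nodal is a TGF-beta family ligand that signals through activin receptors and Tdgf1 to Smad2 and Smad3, which act on DNA with partners such as Foxh1. Lefty1 and Lefty2 are themselves Nodal targets that block the ligand and its co-receptor, so the pathway limits its own spread. Canonical Wnt ligands stabilise beta-catenin, which binds TCF and LEF factors at target genes, and Axin2, a scaffold of the complex that degrades beta-catenin, is a widely induced target that feeds back on the pathway. In pluripotent cells both pathways take part in the passage from the naive to the primed state and in the start of the primitive streak, where Wnt3, Nodal and Mixl1 act and which Cer1 and Lefty1 restrict from the anterior side.

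The arrays measured total RNA, with 3 arrays for each of 6 lines and 18 in all. The embryonic stem (ES) lines were ESC2, of strain B6 x D2 F1, and R1, of strain 129X1/SvJ x 129S1 F1. The induced pluripotent (iPS) lines IP14D-1, IP20D-3 and IP36D-3 carried the B6 x D2 F1 label of ESC2, whereas IP14D-101 had a B6 x 129S2 F1 background; the series' design text says the iPS lines came from mouse embryonic fibroblasts (MEF). Every line grew on mitomycin C treated MEF feeders with LIF, in medium with fetal serum or knockout serum replacement, and which of them a given line received is not in the labels. Each name stands for a single line, so a difference between ES and iPS cells rests on 2 lines against 4, and strain differs with line for R1 and IP14D-101. The design text calls the 3 arrays of a line biological replicates; nothing says that they came from separate cultures, so p-values between lines measure the spread between these arrays, which may be technical.

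Values are log2 intensities on the authors' normalised scale, on which the median probe set of an array lay between 4.86 and 4.93. Levels were compared between lines within a probe set and never between probe sets; the brighter of 2 probe sets of a gene is so called only to name it. A difference was called when limma's adjusted p was under 0.05 and the log2 difference was at least 1, which is a 2-fold change. All 9 measured pluripotency markers, Pou5f1, Nanog and Sox2 among them, had line means above the array median in each of the 6 lines. Arrays of the same line correlated at 0.990 to 0.998 and arrays of different lines at 0.952 to 0.988 across probe sets. For the beta-actin control, the 3' probe set over the 5' one gave a ratio of 1.53 ± 0.0416 (SD, n = 3) in ESC2, and between 1.12 and 1.28 for the means of the other lines, and its part in differences from ESC2 was not tested. The 18S control signal, as intensity, ran from 24.8 to 29.4 in IP14D-101 and from 111 to 525 in IP20D-3, and its part was not tested either.

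The sequences just before the transcription start are shown for Nodal, Axin2 and Lef1, because these members stand for the ligand, the Wnt feedback gene and the nuclear factor whose levels are described below. Each is the 250 bases before a start, 5′ to 3′ on the gene's strand, from RefSeq on the mouse build GRCm38.p6, and capitals mark a TCF/LEF heptamer. Nodal lies on the plus strand of chromosome 10 at chr10:61417722-61417971, and Axin2 on the plus strand at chr11:108920099-108920348. Lef1 has 4 starts in the table, all on the plus strand, of which the first (chr3:131110047-131110296) and the last (chr3:131156044-131156293) are given.
Nodal: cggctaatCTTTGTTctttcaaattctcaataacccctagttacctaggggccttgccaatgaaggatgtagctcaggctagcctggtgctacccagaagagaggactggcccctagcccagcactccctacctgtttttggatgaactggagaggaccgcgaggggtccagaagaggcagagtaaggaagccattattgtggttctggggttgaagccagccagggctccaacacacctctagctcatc
Axin2: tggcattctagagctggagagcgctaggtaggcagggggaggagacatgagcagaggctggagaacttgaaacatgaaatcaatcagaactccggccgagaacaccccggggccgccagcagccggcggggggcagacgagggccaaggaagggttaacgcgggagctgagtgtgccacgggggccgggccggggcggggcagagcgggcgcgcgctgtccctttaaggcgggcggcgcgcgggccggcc
Lef1, first start: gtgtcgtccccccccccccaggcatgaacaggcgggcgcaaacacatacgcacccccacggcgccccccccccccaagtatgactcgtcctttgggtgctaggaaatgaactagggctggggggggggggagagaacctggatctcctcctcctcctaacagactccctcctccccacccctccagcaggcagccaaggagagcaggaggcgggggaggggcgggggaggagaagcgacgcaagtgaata
Lef1, last start: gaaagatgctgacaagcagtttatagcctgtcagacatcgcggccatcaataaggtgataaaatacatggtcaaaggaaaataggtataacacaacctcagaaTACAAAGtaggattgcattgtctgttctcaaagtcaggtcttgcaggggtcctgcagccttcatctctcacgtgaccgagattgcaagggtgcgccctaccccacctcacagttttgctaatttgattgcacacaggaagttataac
RefSeq promoters were found for 6 of the 9 members, with 9 starts in all. The TCF/LEF letters searched were CTTTGAA or CTTTGAT or CTTTGTA or CTTTGTT. These, looked for on both strands, were present in 2 of those 9 windows. They stood 242 bases before the Nodal start as CTTTGTT and 147 bases before the last Lef1 start as TACAAAG, the reverse complement of CTTTGTA. Of all 32851 promoter windows of the same length, 14.8% held such a heptamer. The Foxh1 letters AATNCACA were in 0 of the 9 windows and in 3.18% of all windows. A match describes the letters in the window and no match says only that these letters are not in it. The members Lefty1, Lefty2 and Mixl1, shown here by name, lie on chromosome 1, where the RefSeq gene table places 3 genes between Lefty2 and Lefty1.

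Across the 6 lines, Lefty1, Lefty2, Wnt3, Axin2 and Lef1 differed, while Nodal, Tdgf1, Mixl1 and Cer1 stayed within a 2-fold range. The F test over the line means called 6 of the 13 probe sets, or 46.2%, in 5 of the 9 genes, at adjusted p under 0.05 and a range of at least 1. Of all probe sets tested, 24.2 percent were called by the same rule. The highest and lowest line means were 5.28-fold apart for Axin2 and 4.12-fold for Lefty1, with 3.24-fold and 3.31-fold for the 2 Lef1 probe sets. Lefty2 spanned 2.77-fold and Wnt3 2.75-fold, the latter below the array median and within 2-fold (a range of 0.63) on log2(intensity + 16). Without the limit on the range 11 of 13 probe sets passed, against a background of 70.5 percent, so a small adjusted p was common in these data.

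**Figure D1:**
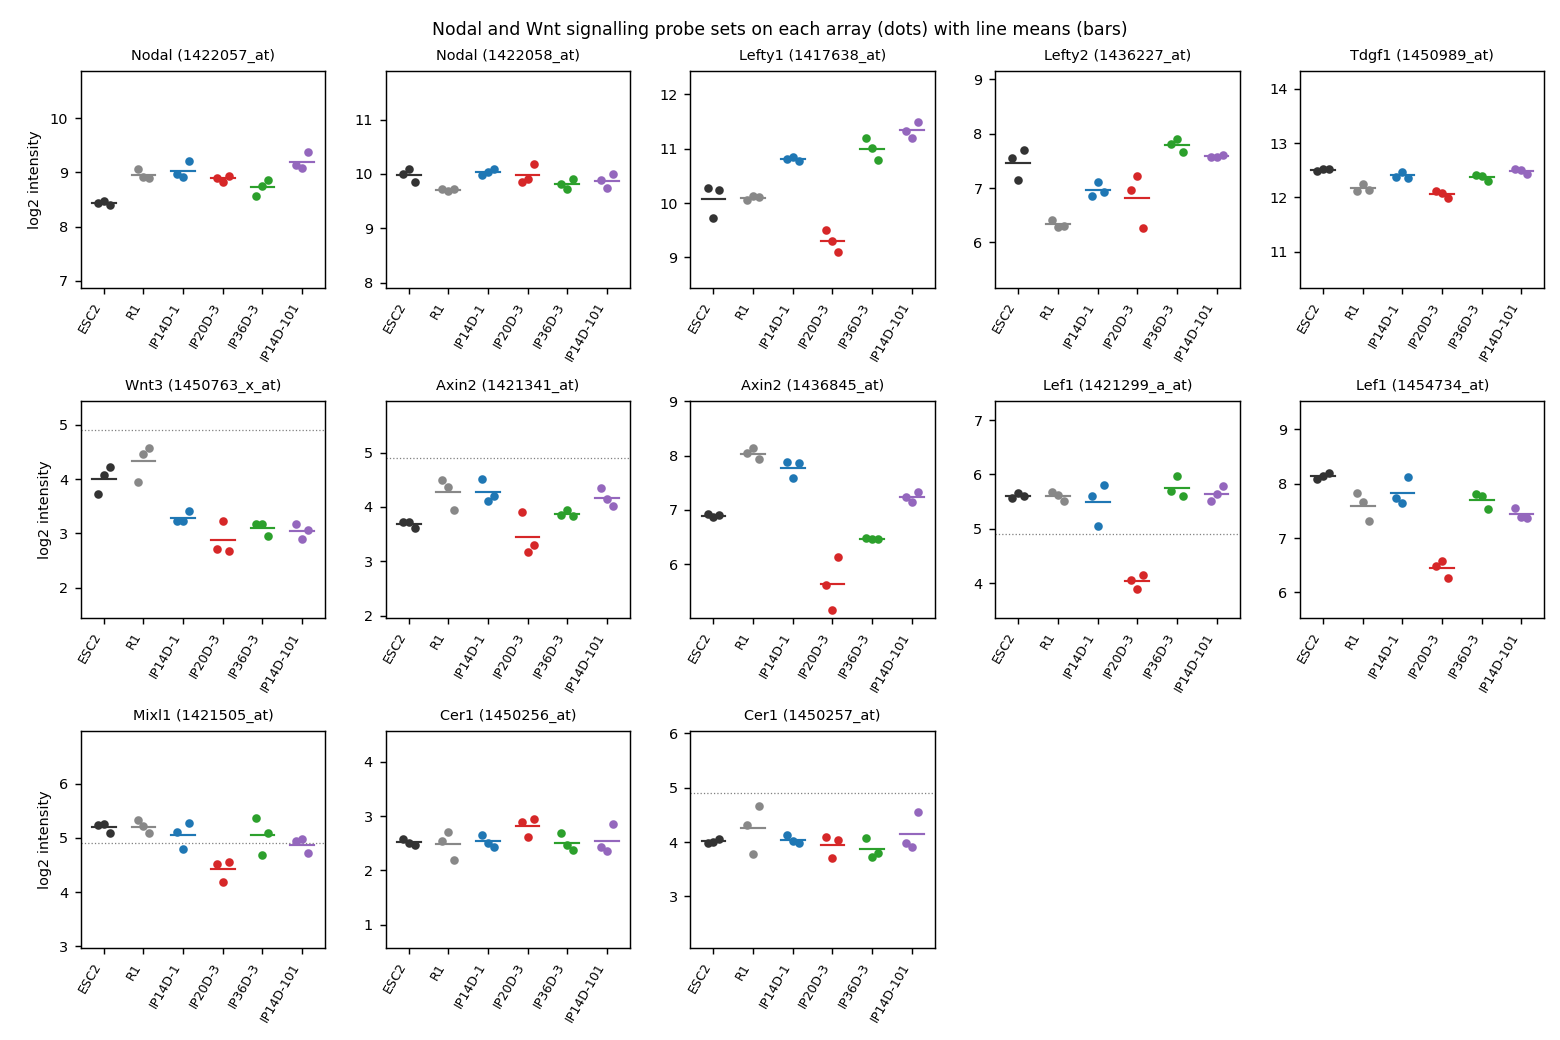
Log2 intensity of the 13 member probe sets on each of the 18 arrays, in panels that each span 4 log2 units; points are arrays, bars are line means and the dotted line, where it falls inside a panel, is the mean of the array medians. The IP20D-3 points sit lowest for Lef1 and for the brighter Axin2 probe set, and all Wnt3 points and those of the second Cer1 probe set lie below the dotted line.

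Nodal itself was well above the array median on all 18 arrays, at nearly the same level in each line. The brighter probe set (1422058_at) read 10.00, 10.10 and 9.86 on the 3 ESC2 arrays and 9.72, 9.69 and 9.73 on those of R1. The iPS arrays read 9.98, 10.03 and 10.10 in IP14D-1, 9.86, 9.90 and 10.19 in IP20D-3, and 9.82, 9.73 and 9.90 in IP36D-3. The IP14D-101 arrays read 9.89, 9.74 and 10.00. The line means spanned 0.32, no neighbours in their order passed the adjusted p, and R1 and IP14D-1 were at the ends. The second probe set (1422057_at) read 8.44, 8.48 and 8.40 in ESC2, below every array of the other lines, which ran from 8.57 to 9.37. By that probe set the other 5 lines were higher than ESC2 by 0.29 to 0.76, with adjusted p between 0.0329 (IP36D-3) and 5.92e-06 (IP14D-101), and none reached the 2-fold limit. The 2 Nodal probe sets thus ordered the lines differently, with a Pearson r of -0.17 over the 6 line means.

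Tdgf1, the membrane-anchored protein that lets Nodal bind its receptors, was bright in all 6 lines. Its arrays read 12.49, 12.52 and 12.52 in ESC2, 12.12, 12.25 and 12.13 in R1, and 12.38, 12.47 and 12.36 in IP14D-1. They read 12.12, 12.08 and 11.98 in IP20D-3, and 12.41, 12.40 and 12.30 in IP36D-3. The IP14D-101 arrays read 12.53, 12.51 and 12.43. The arrays of IP20D-3 and R1 lay below those of the other 4 lines. The difference from ESC2 was -0.45 ± 0.07 (SE, limma adjusted p = 6.29e-05) in IP20D-3 and -0.34 ± 0.07 (limma adjusted p = 0.000797) in R1. Both differences are under 2-fold.

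Lefty1, the antagonist that Nodal induces, separated the lines more than Nodal did. The ESC2 arrays read 10.28, 9.73 and 10.24 and the R1 arrays 10.06, 10.13 and 10.11. IP14D-1 read 10.81, 10.84 and 10.77, and IP36D-3 11.20, 11.02 and 10.79. IP14D-101 was highest at 11.33, 11.20 and 11.49, and IP20D-3 lowest at 9.50, 9.30 and 9.10. No IP20D-3 array reached the lowest array of any other line, and the arrays of IP14D-1, IP36D-3 and IP14D-101 all lay above both ES lines.

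In order, the Lefty1 means were 11.34 ± 0.14 (SD, n = 3) in IP14D-101, 11.00 ± 0.20 in IP36D-3, 10.81 ± 0.03 in IP14D-1, 10.10 ± 0.03 in R1, 10.08 ± 0.30 in ESC2 and 9.30 ± 0.20 in IP20D-3. Neighbours did not differ by the 2-fold rule at any step, although IP14D-1 exceeded R1 by 0.71 and ESC2 exceeded IP20D-3 by 0.78 with adjusted p of 0.000545 and 0.000133. Against ESC2, IP14D-101 was higher by 1.26 ± 0.14 (SE, limma adjusted p = 5.78e-07), or 2.40-fold. The iPS lines thus held both ends of the Lefty1 range, and IP14D-101 exceeded IP20D-3 by 2.04 ± 0.14 (limma adjusted p = 1.46e-09). In IP36D-3 the excess over ESC2 was 0.92 ± 0.14 (limma adjusted p = 4.07e-05) and just short of the limit. It was called at 1.02 without ESC2 replicate 1 and at 1.03 without IP36D-3 replicate 3.

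The sum of endoderm markers was also higher in IP14D-101 than in the other lines. The summed intensity of 14 primitive and visceral endoderm markers was 2685 to 3009 on the IP14D-101 arrays, against 522 to 716 on the 15 others. There 8 of the 14 were called higher than in ESC2 and 0 lower, beside 4.67 percent of all genes called higher. The 6 not called were Foxa2, Hnf4a, Ttr, Afp, Apoa1 and Hhex. The Gata6 mean of IP14D-101 was 7.34 against 3.76 in ESC2, and Cubn 9.56 against 4.17, while Afp (3.94) stayed below the array median. The part of this signal in the Lefty1 level was not tested. In IP36D-3, where Lefty1 was 11.00, the endoderm sum was 659 to 681. In bulk RNA, fewer cells of a type and less RNA per cell cannot be told apart.

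Lefty2, the close relative of Lefty1, was highest in IP36D-3 and lowest in R1. It read 7.55, 7.15 and 7.71 in ESC2, 6.41, 6.28 and 6.30 in R1, and 6.85, 7.12 and 6.92 in IP14D-1. It read 6.96, 7.23 and 6.27 in IP20D-3, and 7.82, 7.91 and 7.67 in IP36D-3. The IP14D-101 arrays read 7.58, 7.58 and 7.61. R1 was lowest, though its arrays and the third IP20D-3 array overlapped. R1 lay below ESC2 by 1.14 ± 0.18 (SE, limma adjusted p = 4.03e-05), below IP36D-3 by a 2.77-fold difference and below IP14D-101 by a 2.39-fold one. The order of the means was IP36D-3 (7.80), IP14D-101 (7.59), ESC2 (7.47), IP14D-1 (6.96), IP20D-3 (6.82) and R1 (6.33), and no pair of neighbours was called. The Lefty2 arrays of IP20D-3 spread widely, with an SD of 0.49.

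The 2 antagonists therefore gave different pictures of R1. Lefty1 in R1 was 10.10, within 0.02 ± 0.14 of ESC2 (SE, limma adjusted p = 0.929), while Lefty2 was lower by more than 2-fold. IP20D-3 was last of the 6 lines in Lefty1 and the fifth in Lefty2, at -0.78 (adjusted p = 0.000133) and -0.65 (adjusted p = 0.00684) against ESC2. Its Lefty2 arrays overlapped those of ESC2, and its Lefty2 difference from IP14D-1 was -0.14 ± 0.18 (SE, limma adjusted p = 0.574). Over the 6 line means, Lefty1 and Lefty2 had a Pearson r of 0.59 and a Spearman rho of 0.66, given as a description of 6 lines on shared arrays. The 2 genes are similar in sequence, and cross-reading between their probes was not tested.

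**Figure D2:**
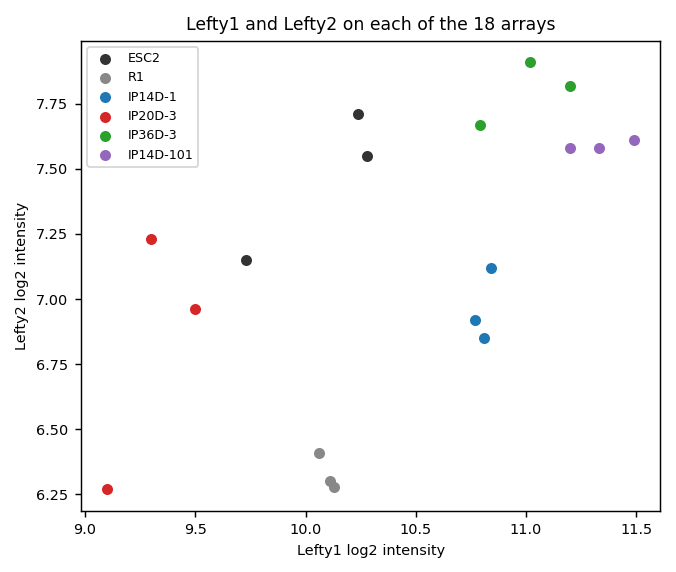
Log2 intensity of Lefty2 (vertical axis) against Lefty1 (horizontal axis), with 1 point for each of the 18 arrays coloured by line. IP20D-3 stands at the low end of Lefty1 (9.10 to 9.50), and R1 at the low end of Lefty2 (6.28 to 6.41) with Lefty1 near that of ESC2.

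Cer1, a secreted antagonist of Nodal, BMP and Wnt ligands made by anterior endoderm, was below the array median on all 18 arrays with both probe sets. The first (1450256_at) had line means from 2.48 to 2.81 and the second (1450257_at) from 3.87 to 4.25. The line means of the first spanned 0.33 (limma F test adjusted p = 0.263) and those of the second 0.38 (limma F test adjusted p = 0.43). In IP14D-101, with its high endoderm marker sum, the Cer1 probe sets averaged 2.54 ± 0.27 and 4.15 ± 0.35 (SD, n = 3), inside the range of the other lines. No difference among lines in Cer1 passed the test at this brightness.

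On the Wnt side, the ligand Wnt3 was also below the array median on every array, and it read lower on the iPS arrays than on the ES arrays. The probe set (1450763_x_at, a type with probes shared among sequences) read 3.73, 4.07 and 4.22 in ESC2 and 3.95, 4.47 and 4.57 in R1. The iPS arrays read 3.22, 3.23 and 3.41 in IP14D-1, 2.72, 3.22 and 2.68 in IP20D-3, and 3.17, 3.17 and 2.96 in IP36D-3. The IP14D-101 arrays read 3.17, 2.89 and 3.07. The highest iPS array read 3.41 and the lowest ES array 3.73, but these are repeat arrays of the same few lines. The share of all probe sets that separate in this way was not counted. R1 was called higher than each of the 4 iPS lines, by 1.05 to 1.46, and ESC2 was called higher than IP20D-3 by 1.13 ± 0.16 (SE, limma adjusted p = 1.9e-05). ESC2 exceeded IP14D-1, IP36D-3 and IP14D-101 by 0.72, 0.91 and 0.96, with adjusted p of 0.00233, 0.000318 and 9.56e-05 and short of 2-fold. These calls depend on the log scale at low signal. On log2(intensity + 16) the difference of IP20D-3 from ESC2 was -0.46 and those of the 4 iPS lines from R1 were -0.49 to -0.63, so 0 of the 5 Wnt3 calls stayed past the 2-fold limit, while each kept its direction and an adjusted p of at most 0.000162.

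Axin2, the feedback scaffold, had the widest range of the 13 probe sets. The brighter one (1436845_at) read 6.92, 6.86 and 6.90 in ESC2 and 8.04, 8.14 and 7.93 in R1. IP14D-1 read 7.88, 7.58 and 7.86, and IP14D-101 7.24, 7.14 and 7.33. IP36D-3 read 6.48, 6.47 and 6.46, and IP20D-3 5.61, 5.15 and 6.14. All 3 IP20D-3 arrays lay below the 15 others, and R1 overlapped no line, its lowest array (7.93) being just above the highest of IP14D-1 (7.88).

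The order of the Axin2 means was R1 (8.04 ± 0.11 SD, n = 3), IP14D-1 (7.78 ± 0.17), IP14D-101 (7.24 ± 0.10), ESC2 (6.89 ± 0.03), IP36D-3 (6.47 ± 0.01) and IP20D-3 (5.64 ± 0.50). No neighbours were called, although IP36D-3 exceeded IP20D-3 by 0.83 (adjusted p = 0.000655) and IP14D-1 exceeded IP14D-101 by 0.54 (adjusted p = 0.0162). The ES lines themselves differed, with R1 higher than ESC2 by 1.14 ± 0.16 (SE, limma adjusted p = 1.37e-05). IP20D-3 was lower than ESC2 by a log2 of 1.26 ± 0.16 (limma adjusted p = 5.05e-06) and 5.28-fold lower than R1. IP36D-3 was 2.96-fold lower than R1 and 2.47-fold lower than IP14D-1. The dim Axin2 probe set (1421341_at, below the array median on every array) gave a like order, with a Pearson r of 0.92 over the 6 lines and a range of 0.82. IP20D-3 was lowest there too, at -0.82 from R1 (limma adjusted p = 0.000462). Its difference from ESC2 was only -0.23 ± 0.17 (SE, limma adjusted p = 0.294), with overlapping arrays. IP36D-3 (3.87) stood above ESC2 (3.69) on that probe set.

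Lef1, a DNA-binding partner of beta-catenin, was set apart in IP20D-3 by both of its probe sets. The brighter (1454734_at) read 8.09, 8.15 and 8.19 in ESC2, 7.82, 7.66 and 7.31 in R1, and 7.74, 7.65 and 8.12 in IP14D-1. It read 6.49, 6.57 and 6.27 in IP20D-3, and 7.81, 7.77 and 7.53 in IP36D-3. The IP14D-101 arrays read 7.56, 7.38 and 7.36. The 3 IP20D-3 arrays were the lowest of the 18, with a gap of 0.99 ± 0.14 (SE, limma adjusted p = 8.81e-06) to the next line, IP14D-101. The second (1421299_a_at, a type that reads several transcripts of a gene) read 4.06, 3.89 and 4.14 in IP20D-3, below the array median, against 5.06 to 5.97 on the other 15 arrays.

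By the second probe set IP20D-3 was called lower than all 5 other lines, by 1.46 to 1.73, and by the first lower than all but IP14D-101, by 1.15 to 1.70. Against ESC2 the difference was -1.70 ± 0.14 (SE, limma adjusted p = 1.46e-08) with the brighter probe set and -1.58 ± 0.15 (limma adjusted p = 8.51e-08) with the other. In the order of the other 5 lines on the second probe set, neighbours were 0.01 to 0.12 apart and did not differ beyond their spread. On the brighter probe set ESC2 (8.14 ± 0.05 SD, n = 3) was highest and above R1 by 0.55, IP36D-3 by 0.44 and IP14D-101 by 0.71, all under 2-fold with adjusted p of 0.00273, 0.0183 and 0.000286.

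Mixl1, a homeobox gene switched on in the primitive streak, was near the array median in every line. Its arrays ran from 5.09 to 5.25 in ESC2, 5.08 to 5.32 in R1, 4.79 to 5.28 in IP14D-1, 4.68 to 5.36 in IP36D-3 and 4.72 to 4.97 in IP14D-101. IP20D-3 read 4.52, 4.18 and 4.56, below all other arrays. Its difference from ESC2 was -0.77 ± 0.15 (SE, limma adjusted p = 0.000494), and it passed the adjusted p against the other 4 lines too, by 0.46 to 0.79, with no difference of 2-fold.

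Counted by comparison, members were called against ESC2 in 3 of the 5 other lines. In R1 2 of 13 probe sets were called, Axin2 higher and Lefty2 lower, where 9.01 percent of all probe sets were called. In IP20D-3 4 were called, all lower (Lef1 with both probe sets, Axin2 and Wnt3), where 3.41 percent of all probe sets were called lower. In IP14D-101 Lefty1 was called higher, where 3.44 percent were called higher; Wnt3 was called too, as lower, without ESC2 replicate 1 (-1.10) or IP14D-101 replicate 1 (-1.03) and with each array centred on the median difference (-1.04) or normalised again by quantiles (-1.03). In IP14D-1 and IP36D-3 0 members were called by limma at the 2-fold rule, where 3.26 and 3.58 percent of all probe sets were. There 6 and 4 members passed the adjusted p alone, and the share of all probe sets that did so was not counted. Without ESC2 replicate 1, Lefty1 and Wnt3 (-1.04) were called in IP36D-3. For IP14D-1 the differences of most size were Axin2 0.88 ± 0.16, Lefty1 0.73 ± 0.14 and Wnt3 -0.72 ± 0.16. The 5 comparisons share the ESC2 arrays. The median member difference was -0.65 in IP20D-3, beside 0.00 over all probe sets, and between -0.14 and 0.04 in the other 4 lines.

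**Figure D3:**
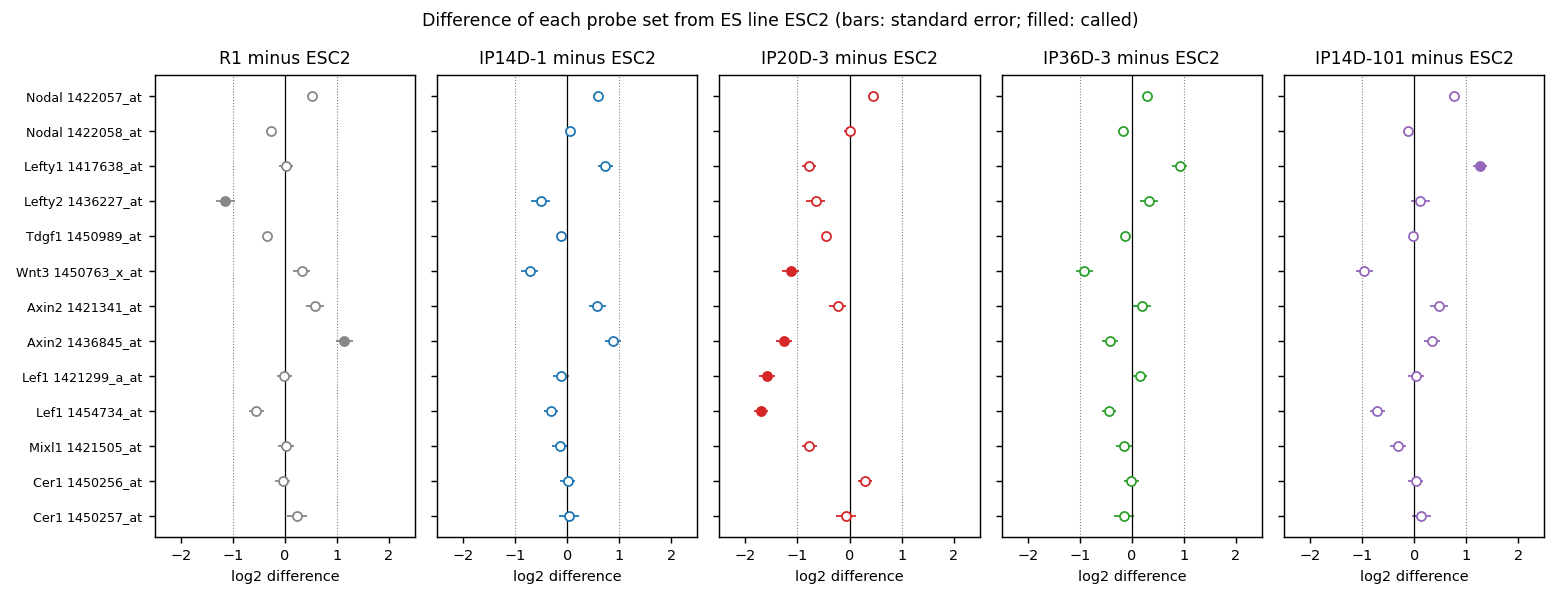
Log2 difference from ESC2 of each member probe set in the 5 other lines, with limma's standard error as bars and dotted lines at a log2 difference of 1 in either direction; filled points were called (adjusted p under 0.05 and at least 2-fold). The filled points are Axin2 and Lefty2 in R1, both Lef1 probe sets, Axin2 and Wnt3 in IP20D-3, and Lefty1 in IP14D-101.

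Over all 15 pairs of lines, 29 of the 195 member results were called, or 14.9%, beside 5.69 percent of the results of all probe sets. In the 5 pairs with IP20D-3, 18 of 65 were called, or 27.7%, beside 7.33 percent of all. Pairs share lines and probe sets share arrays, so these counts are descriptions. On log2(intensity + 16), 22 of the 29 stayed past the limits; the 7 lost were the 5 of Wnt3 and those of the second Lef1 probe set in IP20D-3 against R1 and IP14D-1. Against R1, IP20D-3 was called lower with 4 members (Wnt3, Axin2 and both Lef1 probe sets), beside 4.31 percent of all probe sets. Against IP14D-1 it was lower with Lefty1, Axin2 and both Lef1 probe sets, beside 1.79 percent. IP36D-3 was higher than IP20D-3 with Lefty1 and both Lef1 probe sets (background 1.38 percent), and IP14D-101 was higher with Lefty1, Axin2 and 1 Lef1 probe set (3.22 percent). Among the other iPS lines, IP14D-101 differed from IP14D-1 and from IP36D-3 with 0 called members, where 3.98 and 4.13 percent of probe sets were called. IP36D-3 was lower than IP14D-1 with Axin2 alone of the members (background 1.40 percent lower). Against R1, IP14D-1 was lower with Wnt3 (1.08 percent lower), IP36D-3 was lower with Wnt3 and Axin2 and higher with Lefty2 (6.07 percent in either direction), and IP14D-101 was lower with Wnt3 and higher with Lefty1 and Lefty2 (1.86 percent in either direction).

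In IP20D-3, where Lef1, Axin2 and Wnt3 were low, 4 of the marker lists had genes called lower than in ESC2. They were feeder fibroblast, primed epiblast, primitive streak and mesoderm, and trophectoderm, the last with a sum as low in IP14D-101. The summed intensity of 14 feeder fibroblast markers was 265 to 295 on the IP20D-3 arrays, 1071 to 1198 in ESC2 and 861 to 964 in R1. It was 1699 to 1862 in IP14D-1, 357 to 397 in IP36D-3 and 500 to 564 in IP14D-101. In IP20D-3, 6 of the 14 were called lower than in ESC2 and 0 higher. The same number, 6, was called lower in IP36D-3 and in IP14D-101, with 1 higher in IP14D-101. The sum leans on the brightest markers, such as Acta2 (10.03 in IP14D-1, 8.39 in R1) and Thbs1 (8.16 in R1). In R1, 4 of the 14 were called lower than in ESC2 and 0 higher, among them Col1a2 (5.06 against 6.51) and Lox (4.66 against 6.81). Of that list, Cdh11 (2.49 in IP20D-3) was below the array median in all 6 lines, and Col3a1 (3.15) in all but IP14D-1. In IP36D-3, with the next lowest feeder sum, Lef1 was 7.70 ± 0.15 and 5.76 ± 0.19 (SD, n = 3), within 0.44 of ESC2. There the brighter Axin2 probe set was 6.47 ± 0.01, second lowest of the lines, and Wnt3 was 3.10 ± 0.12. In IP14D-1, with the highest feeder sum, Wnt3 was 3.29 ± 0.10, Lef1 7.84 ± 0.25 and 5.49 ± 0.38, and Axin2 7.78 ± 0.17, second highest of the lines. The summed intensity of 8 primed epiblast markers was 2315 to 2620 in IP20D-3 and 4507 to 8926 elsewhere. In IP20D-3, 7 of the 8 were called lower than in ESC2, with Fgf5 at 4.09 against 6.86 and Pou3f1 at 6.54 against 9.50. Called lower were also 4 in IP14D-101, 3 in R1, and 1 each in IP14D-1 and IP36D-3, with 0 higher. Fgf5 was 4.03 in IP14D-101 and was called lower there, in R1 and in IP14D-1. Pou3f1 was called lower in IP36D-3 and IP14D-101 too. The summed intensity of 9 streak and mesoderm markers lay between 277 and 290 for IP20D-3, against 300 to 325 for IP36D-3 and 339 to 512 for the rest. Of these 9, Eomes, Evx1 (-1.29 ± 0.16 SE) and Fgf8 were called lower than in ESC2 and 0 higher. The trophectoderm sum, over 10 markers, ran from 1038 to 1400 for IP20D-3, and from 1131 to 1520 for the IP36D-3 and IP14D-101 arrays; Cdx2, Eomes, Krt8 and Krt18 of the 10 were called lower and 0 higher in IP20D-3. The part of these RNA sources or states in the member levels, and in the levels of the pathway genes below, was not tested.

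Taken by cell type, with 4 iPS line means against 2 ES line means, 0 members were called, and limma called 0 of all 45037 probe sets. At an unadjusted p under 0.05 there were 1451 probe sets, or 3.22 percent of those tested. Wnt3 was 3.08 ± 0.17 (SD over n = 4 lines) in the iPS lines and 4.17 ± 0.23 (n = 2) in the ES lines. Its difference of -1.09 ± 0.17 had an unadjusted limma p of 0.000479, place 9 among the 45037, and a limma adjusted p of 1. Mixl1 gave -0.35 ± 0.21 (SE), with an unadjusted limma p of 0.137 and place 4472. With the brighter probe set where there are 2, Axin2 gave -0.69 ± 0.63, Lef1 -0.51 ± 0.41, Lefty1 0.52 ± 0.55 and Lefty2 0.39 ± 0.41 (SE). Nodal gave 0.08 ± 0.14 and 0.26 ± 0.20 with its 2 probe sets, Tdgf1 -0.01 ± 0.18, and Cer1 0.10 ± 0.14 and -0.13 ± 0.14.

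With the 18 arrays in place of the line means and the lines fixed, Wnt3 was called (-1.09, limma adjusted p = 1.49e-07). That fit counts arrays as replicates, takes the spread within lines as its error and leaves out the spread between lines. With the line as a random block, the consensus correlation of arrays in a line was 0.693 and its adjusted p was 0.0928. Within the 4 lines of strain B6 x D2 F1 the difference was -0.92 (adjusted p = 0.00131), short of the 2-fold limit; this fit too counts arrays as replicates, and ESC2 is its single ES line.

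The rest of the Nodal pathway and the rest of the Wnt pathway were taken from 11 lists with 131 genes measured outside the members, each read from its brightest probe set. The F test called 57 of the 131 among the 6 lines, or 43.5 percent, beside 25.9 percent of all genes. Against ESC2, IP20D-3 had 18 lower and 3 higher (13.7 and 2.29 percent, beside 3.38 and 5.22 percent of all genes). R1 had 11 higher and 6 lower (all genes 4.38 and 3.75 percent) and IP14D-101 had 12 higher and 8 lower (4.67 and 4.06 percent). IP14D-1 had 7 higher and 2 lower (2.08 and 1.36 percent), and IP36D-3 had 2 higher and 6 lower (1.91 and 1.47 percent). In 32 of the 131 genes the highest line mean was under the array medians. Leaving out ESC2 replicate 1 gave 4 lower in IP14D-1 and 1 higher in IP36D-3, leaving out IP14D-1 replicate 3 gave 5 lower in IP14D-1, and leaving out IP20D-3 replicate 1 gave 5 higher in IP20D-3. Some genes are in 2 lists, among them Smad7, Skil, Bmp4 and Dkk1.

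Among ligands and processing enzymes of the Nodal and activin branch, 2 of 9 measured genes fell in IP20D-3 and 0 rose. Inhba, the activin A subunit, was 6.03 in ESC2 and 4.36 in IP20D-3 (-1.68 ± 0.12 SE, limma adjusted p = 3.85e-09), and was called lower than ESC2 in R1, IP36D-3 and IP14D-101 too (-1.10 to -1.44). The feeder marker Col1a2 ranked the lines in the same order, from 6.51 in ESC2 to 4.35 in IP20D-3. Other feeder markers did not, such as Acta2, highest in IP14D-1 (10.03). The part of feeder RNA in the Inhba level was not tested. Bmp4 fell in IP20D-3 by 1.45 ± 0.14 (limma adjusted p = 1.24e-07). Tgfb1, at 4.96 in ESC2, was higher in R1 (7.28), IP14D-1 (6.26) and IP14D-101 (6.46). Inhbb was higher in IP14D-101 alone among the 5 comparisons, at 8.40 against 7.13 in ESC2.

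Of the 8 receptors and co-receptors, Acvr1b rose in IP36D-3 (1.03 ± 0.08 SE above ESC2), Acvr2b in IP14D-101 (8.88 against 7.51), and Tgfbr2 fell in IP20D-3 (3.74 against 4.81, both below the array median). Of the 10 Smad factors and partners, the inhibitory Smad7 and the DNA-binding partner Foxh1 differed most often. Smad7 was 8.27 in ESC2, 9.90 in R1, 9.74 in IP14D-1 and 10.22 in IP14D-101, with adjusted p of 8.64e-11, 1.11e-09 and 8.8e-12 in those 3 lines. In IP20D-3 it was 8.21, and IP36D-3 read 8.68. Foxh1 was 7.85 in ESC2 and called higher in R1 (9.25) and IP14D-1 (8.86), while its 8.76 in IP14D-101 missed the limit.

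Follistatin (Fst), which binds activin, was the most variable of the 9 other Nodal pathway inhibitors. It was 7.76 ± 0.17 in ESC2 and 7.71 ± 0.37 in IP14D-1 (SD, n = 3), and lower in R1 (6.30), IP36D-3 (6.30), IP20D-3 (6.49) and IP14D-101 (4.89). Its difference was -2.87 ± 0.17 (SE, limma adjusted p = 4.08e-10) in IP14D-101. Among the 9 measured Nodal targets outside the members, 4 fell in IP20D-3, namely Eomes (-1.08 ± 0.20), Fgf8 (-1.25 ± 0.16), Otx2 (-2.17 ± 0.16) and Skil (-1.02 ± 0.11), and 0 rose. Otx2, a factor of the primed state, also fell in R1 (-2.17 ± 0.16) and IP14D-101 (-1.72 ± 0.16) and was 8.75 in IP36D-3 beside 8.73 in ESC2. Eomes, Fgf8 and Otx2 also stand in the streak, trophectoderm and epiblast marker lists above and are not independent of them.

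Among the 24 other Wnt ligands and genes of their secretion, Wnt8a and Rspo1 fell in IP20D-3 and 0 rose. Wnt8a was 6.13 in both ES lines, 5.26 in IP14D-1, 4.91 in IP36D-3, 4.57 in IP14D-101 and 3.58 in IP20D-3, where the difference from ESC2 was -2.54 ± 0.16 (SE, limma adjusted p = 7.81e-10). Porcn, the acyltransferase that lipid-modifies Wnt proteins, was called higher than ESC2 in R1, IP14D-1 and IP14D-101, by 1.18 to 1.64. Wls, the carrier that takes Wnt proteins to the cell surface, fell in IP14D-101 alone among the 5 comparisons (-2.76 ± 0.12). Wnt4 rose in R1, at 7.96 against 6.10 in ESC2.

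Of the 19 measured Wnt receptors, 3 fell in IP20D-3 and 0 rose. The Frizzled receptor Fzd2 was 5.89 in IP20D-3, 7.46 in ESC2 and 8.49 in R1. The receptor kinase Ror1 was 7.06 in ESC2 and called lower in all 5 other lines, by 1.25 in IP14D-1 to 2.83 in IP20D-3. Ror2 fell in IP20D-3 by 1.29 ± 0.12. The co-receptor Lrp5, at 3.51 in ESC2 and below the array median, was called higher in R1 (6.39), IP14D-101 (5.88) and IP14D-1 (4.76, still below the median).

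Secreted Wnt inhibitors moved both ways among 12 measured genes. Sfrp1 was called higher than ESC2 (7.19) in IP20D-3 (8.68), IP36D-3 (8.32) and IP14D-101 (8.24), while Sfrp2 fell in IP20D-3 (5.55 against 6.83). Dkk1 was called higher in IP14D-101 at 5.34, and lay below the array median in the other 5 lines. In the destruction complex and relay (13 genes), Btrc, the beta-catenin ubiquitin ligase subunit, was higher in R1, IP14D-1, IP20D-3 and IP14D-101 by 1.13 to 1.37. Among 12 TCF factors and nuclear partners, the corepressor Tle3 rose in IP20D-3 (1.17 ± 0.09 SE), and 0 were called in the other 4 comparisons.

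Of the 14 measured Wnt targets outside the members, 5 fell in IP20D-3 and 0 rose. Sp5, a transcription factor gene that Wnt signals switch on, was 7.82 in ESC2, 8.42 in R1, 7.98 in IP14D-1, 6.21 in IP36D-3, 5.64 in IP14D-101 and 5.34 in IP20D-3. Its differences from ESC2 were -2.48 ± 0.16 in IP20D-3, -2.18 ± 0.16 in IP14D-101 and -1.62 ± 0.16 in IP36D-3 (SE; limma adjusted p = 8.03e-10, 4.05e-09 and 4.39e-07). Cdx2 fell in the same 3 lines, by 1.49, 1.30 and 1.19. Myc fell in IP20D-3 (-2.28 ± 0.09), as did Bmp4 and Ccnd1 (-1.08 ± 0.09); Ccnd1 is outside the rule for named genes and is given to complete the 5. In IP14D-101, where Sp5 was low, Axin2 (7.24) was above ESC2 by 0.34 ± 0.16 (limma adjusted p = 0.0894), so Sp5 and Axin2 did not rank the lines alike.

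**Figure D4:**
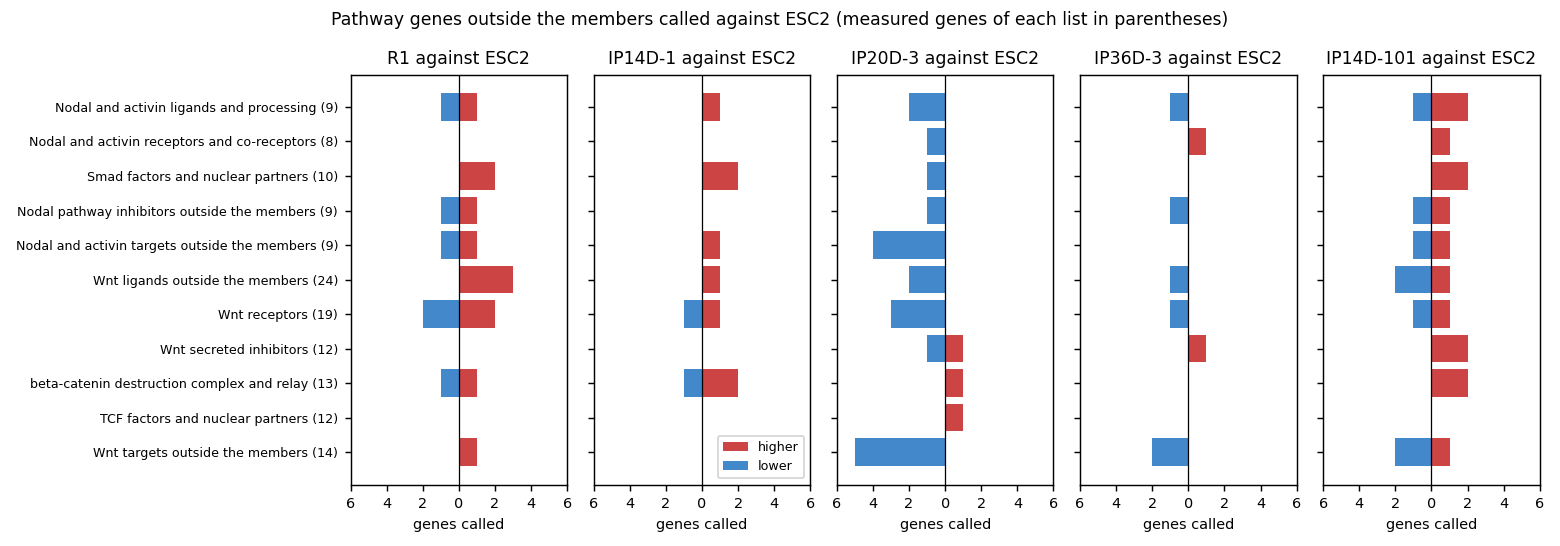
Number of genes outside the members called higher (red, to the right) or lower (blue, to the left) than ESC2 in 11 pathway lists, with 1 panel for each of the 5 other lines and the number of measured genes in parentheses. IP20D-3 has the longest bars to the left, with 5 of 14 Wnt targets and 4 of 9 Nodal targets lower.

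Genes with the closest pattern over the 6 line means were listed for each of the 5 members with a range of at least 1, among 4068 genes with as wide a range and a line mean of at least 6. Nearest to Lefty1 were Rrbp1 (Pearson r 0.985), Prph (0.984) and Gas6 (0.951). Nearest to Lefty2 were Ppargc1b (0.924), Gramd1a (0.920) and Dna2 (0.906). Nearest to Wnt3 were Serinc5 (0.990), Hacd1 (0.987) and Sfmbt2 (0.971). Nearest to Axin2 were Flna (0.991), Ptprn (0.990) and Vapb (0.987), and nearest to Lef1 were Mpp6 (0.986), Lpar6 (0.982) and Jag1 (0.980). With 6 lines and that many candidates such values describe the order of the lines and no more. Lpar6 showed the same low IP20D-3 level as Lef1, at 6.89 against 9.26 in ESC2, and Flna the order of Axin2, from 10.99 in R1 to 9.03 in IP20D-3.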

How the data were processed

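Biotin-labelled RNA of 6 lines, 3 arrays each, was measured on 1-colour Affymetrix mouse expression arrays. The deposited intensities are RMA probe set values of the authors, per the submitters' processing notes and the design text. RMA corrects background, equalises the distributions of the arrays by quantiles and summarises the probes of a set; its version was not given in those sources. They are on a linear scale (array medians 29.1 to 30.5), already normalised between arrays, and were taken to log2. Intensities carry no read depth, and the number of arrays limits the precision.

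Of 45101 probe sets, 64 controls were left out. Symbols came from the platform annotation, in which 34945 probe sets have 1 symbol, 932 several and 9160 none; 34741 of the 34945 were found by gene identifier in a RefSeq table of GRCm38.p6, with 0 symbols changed. Only probe sets with 1 symbol were named. The lead probe set of a gene is the one with the highest mean over the 18 arrays.

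Line differences came from limma 3.58.1 (R 4.3.3), with a mean per line over 18 arrays (12 residual degrees of freedom), moderated statistics and Benjamini-Hochberg adjusted p-values over all 45037 probe sets of each comparison. The iPS against ES comparison used the 6 line means. Steps were tested on simulated data. Python 3.11.15, pandas 2.3.3, numpy 2.4.6 and matplotlib 3.10.9 made tables and plots.

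The members and the gene lists were chosen with earlier results of these data known. Named genes are all members, at most 6 genes of each pathway list (those called in the most of the 5 comparisons with ESC2, ties by range), and the 3 genes most like each member with a range of at least 1. Some listed genes, among them Gdf1, T, Kremen2, Tcf7, Tdh and Fbn1, had no probe set of a single symbol here and were not analysed here. The marker lists were pluripotent, feeder fibroblast, endoderm, streak and mesoderm, primed epiblast, trophectoderm and neuroectoderm. The fibroblasts named in the design text were not analysed here.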

Additional observations from a re-analysis of the deposited data

Results flagged for a closer look

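Among the 4 iPS lines, the gap between the most extreme line and the next, divided by the range of the 4, was compared with Dixon's 95% critical value for 4 values, for each of the 13 probe sets. For Lef1 (1421299_a_at), IP20D-3 was the lowest of the 4 with a ratio of 0.845, at 4.03 against 5.49 to 5.76 in the other iPS lines. For Cer1 (1450256_at), IP20D-3 was the highest with a ratio of 0.875, at 2.81 against 2.51 to 2.54, with all of these values below the array median. Chance gives about 1 such group in 20, and 13 were examined.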

How the results depend on the processing

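No called member difference from ESC2 changed direction under any alternative run. Called differences between other pairs of lines were rerun with log2(intensity + 16) alone, and there they kept their direction. With no limit on the log2 difference, members called against ESC2 numbered 7 in R1, 6 in IP14D-1, 9 for IP20D-3, 4 for IP36D-3 and 5 for IP14D-101. Among the 6 lines they numbered 11, where 70.5 percent of all probe sets passed. Pathway genes higher and lower numbered 51 and 27 in R1, 27 and 27 in IP14D-1, 18 and 61 for IP20D-3, then 24 and 27 for IP36D-3, and 46 and 32 in IP14D-101. For the single comparisons the share of all probe sets or genes without the limit was not counted, so these counts have no background beside them. Centring arrays on the median difference gave 2 members in IP14D-101 and 1 pathway gene higher in IP36D-3, and repeated quantile normalisation gave the same counts, 2 and 1. With log2(intensity + 16), 22 of the 29 called differences between lines stayed called (for pairs without ESC2 an alternative added after seeing the data), Wnt3 dropped out of the members called among the lines, and pathway genes higher numbered 4 in IP14D-1 and 1 in IP36D-3. Over all the alternative runs, pathway genes lower in IP20D-3 numbered at least 14 and those lower in IP36D-3 at least 4. The lowest counts were 8 higher and 4 lower in R1, and 10 higher and 6 lower in IP14D-101. Centring changed the median of all probe sets in R1 from 0.102 to 0.0259. Leaving out each array in turn gave 4 members in IP20D-3, 2 in R1 and 0 in IP14D-1 each time, 0 to 2 in IP36D-3, 1 to 2 in IP14D-101, 6 to 7 among the lines and 0 for iPS against ES. Pathway genes then ranged from 2 to 5 lower and 7 to 8 higher in IP14D-1, 3 to 5 higher and 16 to 20 lower in IP20D-3, 1 to 2 higher and 6 to 7 lower in IP36D-3, 11 to 13 higher and 6 to 8 lower in R1, and 12 to 13 higher and 8 to 10 lower in IP14D-101. For iPS against ES, 18 arrays with lines fixed called 1 member, and 1 with the replicate block added (Wnt3, -1.09).

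The deviations of same-numbered arrays of different lines correlated at a mean of 0.041 (-0.287 to 0.295), with 12 of 45 pairs over 0.1. For arrays of other numbers the mean was -0.020 (-0.315 to 0.321), with 11 of 90 pairs over 0.1. Whether arrays of the same number are paired was not tested. With the replicate number as a block, member calls against ESC2 stayed at 2 in R1, 0 in IP14D-1, 4 for IP20D-3, 0 for IP36D-3 and 1 for IP14D-101. The alternatives for pathway gene counts were chosen after seeing the data. The cause of the changes in count was not tested. Wnt3, Cer1 and the dim Axin2 probe set lie below the array median, where signal over background limits what can be seen. So do the IP20D-3 means of pathway genes such as Wnt8a (3.58), Rspo1 (3.57), Cdx2 (4.33) and Fgf8 (4.47).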

Other observations

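Trophectoderm and neuroectoderm markers also set R1 apart; Cdx2 and Eomes of the trophectoderm list are among the pathway genes above too. The summed intensity of 10 trophectoderm markers was 5130 to 5821 on the R1 arrays, 2320 to 2870 on those of ESC2 and IP14D-1, and 1038 to 1520 on those of IP20D-3, IP36D-3 and IP14D-101. Among them the keratin gene Krt8 had line means of 11.29 in R1, 9.76 in ESC2 and 7.95 in IP20D-3, and Krt19 of 8.32, 6.36 and 5.51. In R1 4 of the 10 were called higher than in ESC2, and in IP20D-3 4 were called lower. Of 7 neuroectoderm markers in R1 against ESC2, 3 were called lower (Olig1, Olig2 and Pax6, the last at 5.16 against 6.94), Nes was called higher (8.57 against 7.30), and Sox1 (0.23), Hes5 (0.02) and Zic1 (-0.80) were not called. Olig1 and Olig2, transcription factor genes of the oligodendrocyte lineage, were 3.90 and 3.10 in R1 and between 6.90 and 9.22 in the other 5 lines.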
